A study of Drosophila melanogaster with 3 samples.

Results

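The genes described are Mef2, which encodes the MADS-box factor that switches on muscle genes, and 9 genes for proteins of the contractile apparatus, namely sls, Tm1, Tm2, Mhc, Mlc2, Act57B, Act87E, up and bt. They are 10 of the 13945 protein-coding genes annotated on the 6 chromosome arms of Drosophila melanogaster read here, which leave out the Y. A locus is the gene plus 5 kb on either side, and every peak whose summit fell there was taken, which gave 14 of the 5357 reproducible summits and 63 of the 23597 relaxed summits called on the pooled replicates. Binding was mapped by ChIP-seq, which sequences the DNA that comes down with a protein in an immunoprecipitation, in whole embryos aged 0 to 24 h, males and females pooled, of a transgenic line that stably carries Hr3 (also named Hr46) with GFP fused to its C-terminus. An antibody against GFP was used in all 3 biological replicates, which form 1 group with no second condition, so binding is described and no groups are tested. In whole embryos the cells in which a site is bound are not resolved, and a site bound in few cells cannot be told apart from one bound weakly in many.

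Hr3 is an orphan nuclear receptor induced by the steroid hormone ecdysone, and belongs to the ROR family, named in mammals for its likeness to the retinoic acid receptors. Members of this family bind DNA as monomers at a hexamer core preceded by an AT-rich stretch, and Hr3 is best known for activating ftz-f1 in the timed cascade of ecdysone genes. Muscle genes are switched on in the embryonic mesoderm by Mef2, which binds an AT-rich element, together with basic helix-loop-helix factors that bind E-boxes. The proteins they encode build the sarcomere, in which actin thin filaments with tropomyosin and troponin slide along myosin thick filaments, and giant titin-like proteins link the filaments to the Z-disc.

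A reproducible summit lay in the locus of 6 of the 10 genes, namely Mef2, sls, Tm1, Mlc2, Act57B and Act87E, where 53.2% of all protein-coding genes had one. At a gene's own promoter, within 500 bp of a transcription start site (TSS) of any of its transcripts, there was one in 4 of the 10, namely Mef2, sls, Tm1 and Act87E, against 23.9% of all genes. With 10 genes a share moves in steps of 10 percentage points, so the locus count is within 1 gene of the genome-wide share and the promoter count within 2 genes of it. Tm2, Mhc, up and bt had no reproducible summit in the locus.

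**Figure D1:**
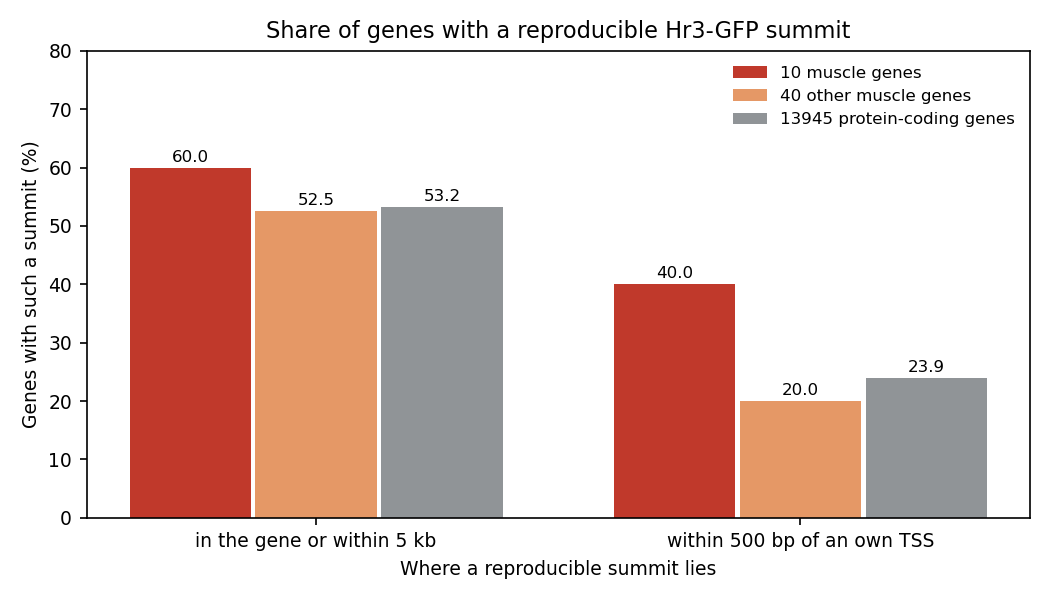
Bars give the percentage of genes with a reproducible summit in the gene or within 5 kb (left) and within 500 bp of an own TSS (right), for the 10 muscle genes, 40 other muscle genes and all 13945 protein-coding genes. The bars on the left lie close together, at 60%, 52.5% and 53.2%, and those on the right stand at 40%, 20% and 23.9%.

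Longer genes had a locus summit more often, so the genes were also read against genes of their own size. Of the 3 genes under 5 kb, all 3 had a summit in the locus and 1 at its promoter, against 48.4% and 21.1% of genes of that size. Neither of the 2 genes from 5 kb to under 20 kb, Tm2 and up, had either, against 66.3% and 33.3%. Of the 5 genes of 20 kb or more, 3 had a locus summit and the same 3 a promoter summit, namely Mef2, sls and Tm1, against 70.8% and 29.7%.

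The replicates gave the same picture of the promoters. In the 5357 strongest relaxed peaks of each replicate the own promoters of Mef2, sls, Tm1 and Act87E held a summit, 4 of 10 each time, where 23.8%, 23.8% and 22.8% of all genes had one in replicates 1, 2 and 3. In the loci, 5 of 10 genes had a summit in each replicate, where 53.5%, 52.9% and 52.2% of all genes had one. The fifth gene beside those 4 was a different one each time, bt in replicate 1, Mlc2 in replicate 2 and Act57B in replicate 3.

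Of the 14 reproducible summits, 5 lay at a promoter of the gene itself, 4 at the promoter of a neighbouring gene, 1 in a UTR, 2 in introns and 2 between genes. None lay in a coding exon. Promoters of any gene thus held 64.3% of these summits, against 51.5% of all 5357 reproducible summits. In the strongest peaks of replicates 1, 2 and 3 the share was 61.5%, 66.7% and 57.1%. UTRs held 7.14% of the 14, introns 14.3% and stretches between genes 14.3%, against 0.971%, 33.3% and 13.2% of all reproducible summits. Coding exons held 0.131% of all reproducible summits, so a summit there was rare anywhere. The loci together span 340 kb and held 4.12 summits per 100 kb, with a 95% exact Poisson interval of 2.25 to 6.92 that covers counting error only. Over the 6 chromosome arms the density was 4.00, inside that interval.

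**Figure D2:**
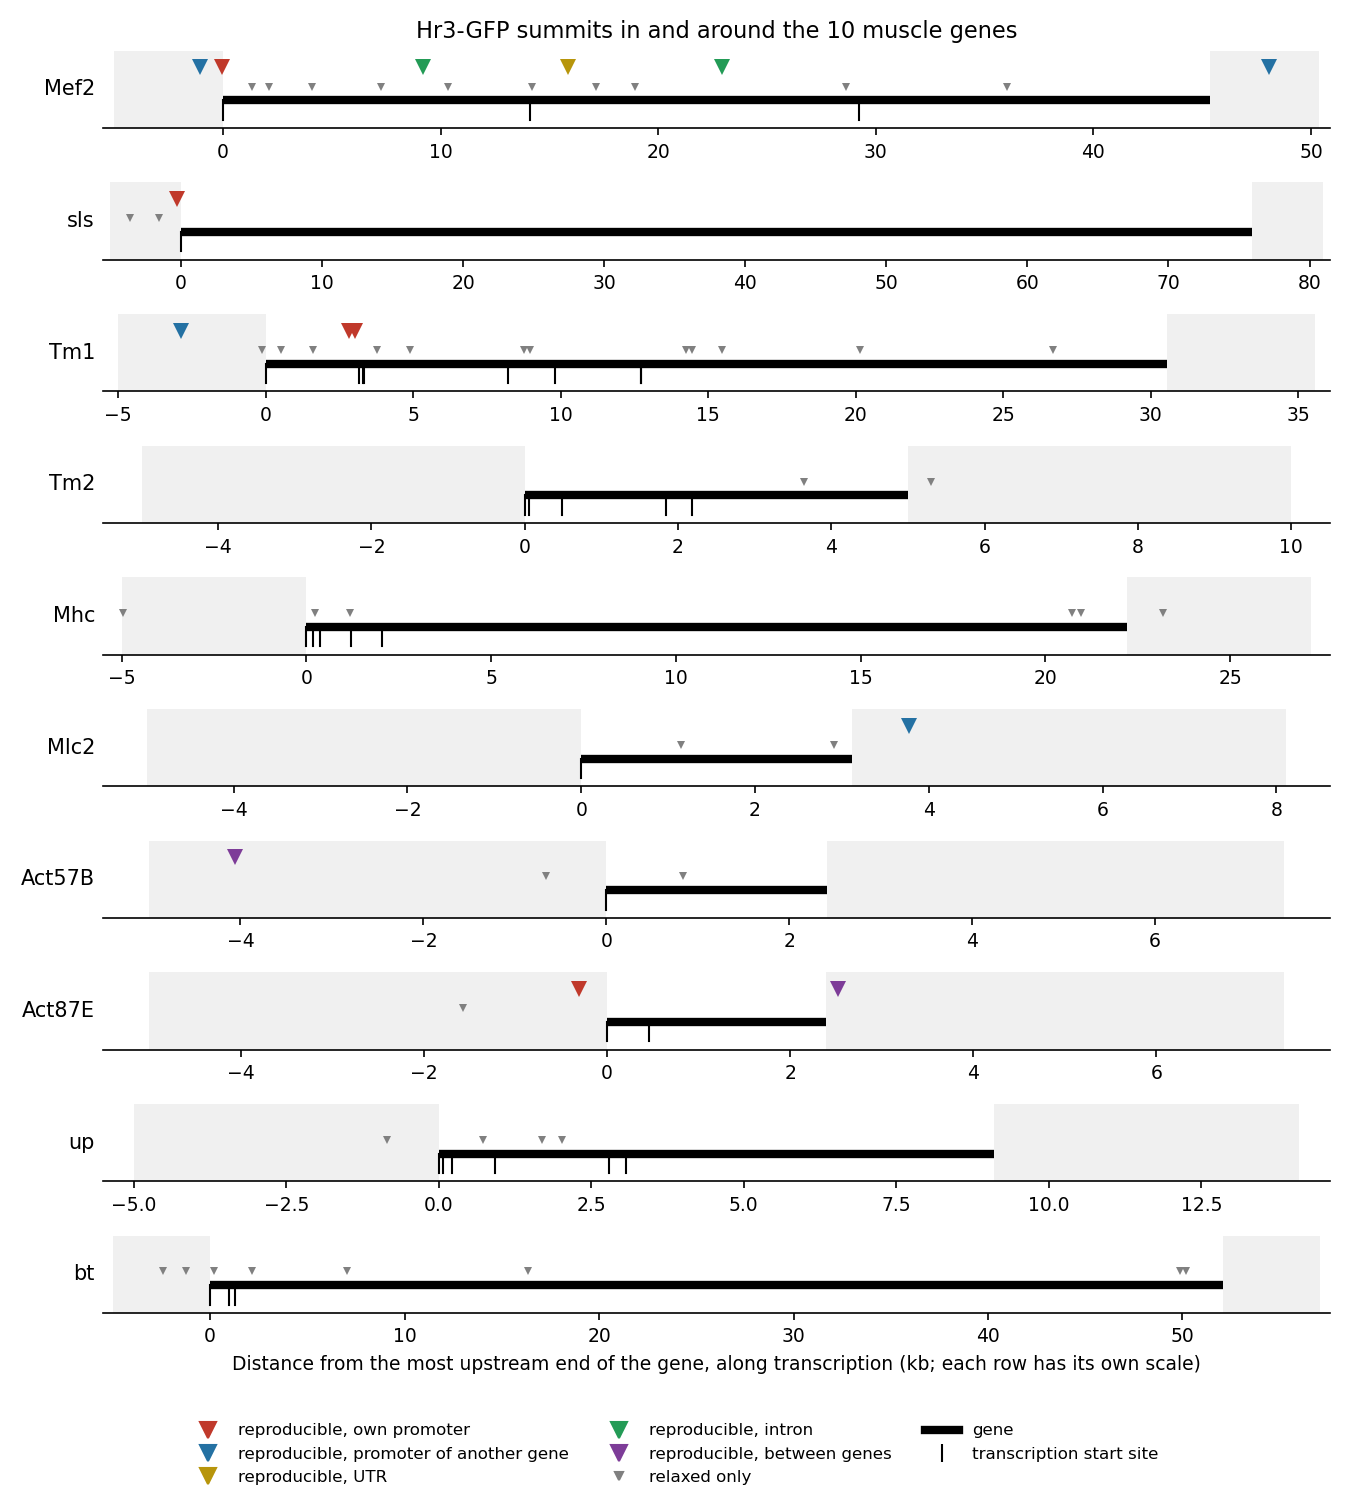
Each row maps a gene (black bar) and its flanks (grey) along the direction of transcription, with distance in kb from the upstream end of the gene, TSSs as ticks, reproducible summits as large triangles coloured by place, and relaxed summits outside the reproducible list as small grey triangles. Mef2 carries 6 reproducible summits, sls has its only one beside its TSS, and the rows of Tm2, Mhc, up and bt show relaxed summits alone.

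Mef2 (FBgn0011656) lies on the minus strand of 2R from 9913496 to 9958858 on dm6 and had 6 reproducible and 16 pooled relaxed summits, the most of the 10 genes on both counts. Its 11 transcripts start at 3 sites, a distal one used by Mef2-RF and Mef2-RH, a middle one used by Mef2-RG, and a proximal one used by 8 transcripts. The distal promoter was the one with a reproducible summit, at 9958891, 33 bp upstream of the TSS. Signals were divided by each replicate's median at the reproducible summits to give a relative signal, in which 1 is a typical reproducible peak. That promoter had 1.05, 0.778 and 0.832 in replicates 1, 2 and 3, a mean of 0.886 ± 0.143 (SD, n = 3). It is a peak of ordinary height.

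The proximal promoter of Mef2, which starts most of its transcripts, had no relaxed summit within 500 bp in any of the 3 replicates. The nearest pooled relaxed summit lay 615 bp upstream with an authors' signal of 52.4, against 154.6 at the distal promoter. It lay in a relaxed peak of replicates 1 and 3, at 0.318 and 0.498, and in no peak of replicate 2. The nearest reproducible summit lay 6325 bp upstream of the TSS. At the middle TSS the strongest relaxed peaks reached 0.357, 0.417 and 0.542 in the 3 replicates, below the distal promoter in each.

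Inside Mef2, 3 reproducible summits lay away from all 3 promoters. The strongest, at 9943000, was in the 5' UTR exon of Mef2-RG, 1764 bp downstream of the middle TSS and within intron 1 of Mef2-RF. It had 1.88, 2.26 and 2.09, a mean of 2.08 ± 0.190 (SD, n = 3), more than the distal promoter in every replicate. The peak is narrow, at 232 bp against a median width of 460 bp in the list. A summit at 9949679 in intron 1 of Mef2-RF had 0.626, 0.905 and 0.947, a mean of 0.826 ± 0.174 (SD, n = 3). Another at 9935940 in intron 2 had 0.542, 0.841 and 0.699, a mean of 0.694 ± 0.150 (SD, n = 3). The ranges of these 2 intronic summits overlap, but the one in intron 1 was the higher in all 3 replicates.

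The tallest peak of the Mef2 locus belongs by position to its neighbours. Its summit at 9959922 lies 1064 bp upstream of the distal Mef2 TSS and 156 bp upstream of Pal1, which encodes an enzyme of peptide amidation, within 500 bp also of the TSS of Pdrg1. It had 8.36, 8.23 and 8.33 in the 3 replicates, a mean of 8.30 ± 0.0682 (SD, n = 3), and ranked 22 of 5357 by pooled signal. The Mef2 promoter summit lay 1031 bp away, in a separate peak that was lower in all 3 replicates. At the other end of the locus, the summit at 9910794 lay 99 bp upstream of Etf-QO, a mitochondrial electron transfer gene, and 2702 bp past the end of Mef2, with 0.784, 0.898 and 0.819, a mean of 0.834 ± 0.0583 (SD, n = 3).

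**Figure D3:**
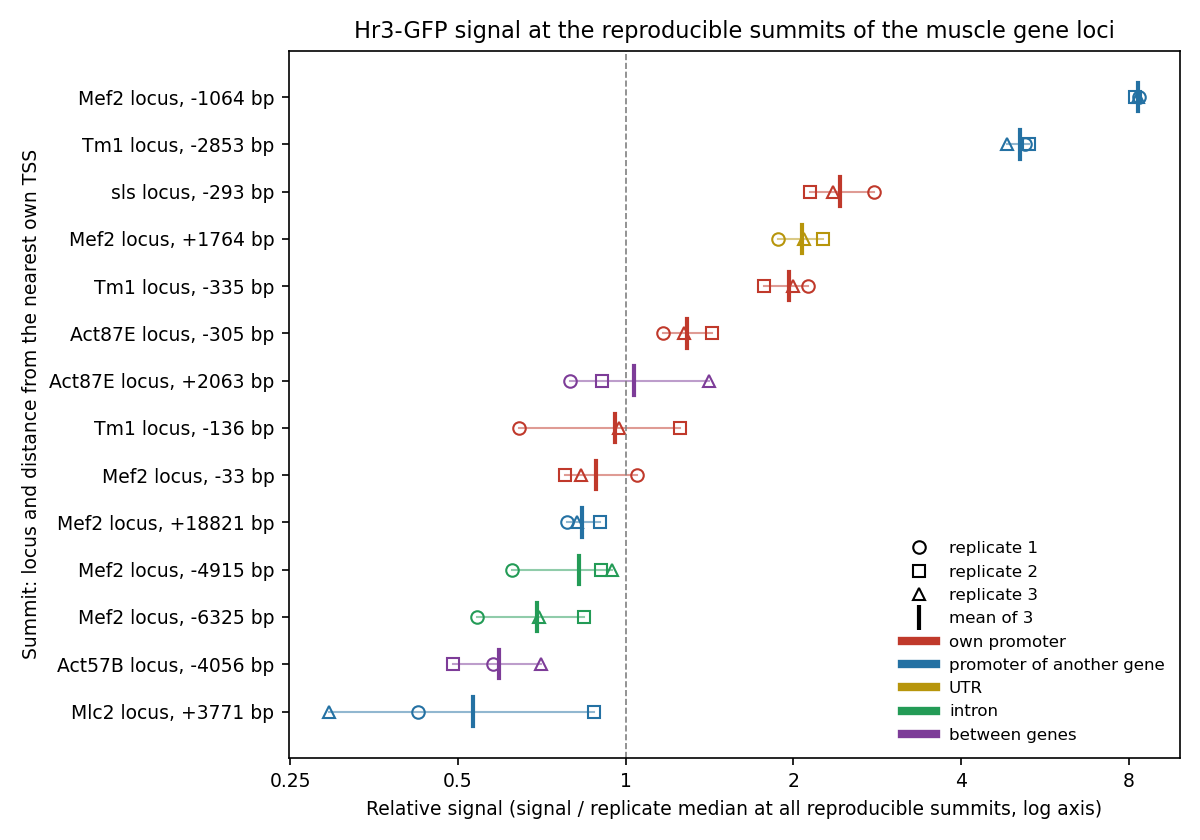
Relative signal of the 14 reproducible summits on a log axis, ordered by the mean of the 3 replicates, with 1 symbol per replicate, a bar at the mean and colour for the place of the summit; labels give the signed distance to the nearest TSS of the gene named. The strongest pair, at 8.30 and 5.12, sits at promoters of other genes, and the replicates spread most at the weakest, in the Mlc2 locus, from 0.294 to 0.879.

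The order of the 14 summits was firm at the top and loose below. The summit at Pal1 stood above the one at Cp190 in the Tm1 locus, and that one above the sls promoter, in 3 of 3 replicates. The sls promoter, the Mef2 UTR summit and the stronger Tm1 promoter summit had means of 2.43, 2.08 and 1.97. The sls promoter stood above the Tm1 summit in 3 of 3 replicates, while the Mef2 UTR summit between them kept its order with either in 2 of 3. All 3 of these stood above the Act87E promoter in 3 of 3 replicates. From the Act87E promoter at 1.29 down to the Mlc2 locus at 0.532, only 1 pair of neighbours, the intronic summits of Mef2, kept its order in 3 of 3 replicates. All 14 summits had a relaxed peak in all 3 replicates, and the median coefficient of variation was 14.8%. Of all 5357 reproducible summits, 5293, 5341 and 5330 lay in a relaxed peak of replicates 1, 2 and 3. The presence of such a peak therefore does not set the 14 apart from the list.

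Tm1 (FBgn0003721), a tropomyosin gene that also makes non-muscle isoforms, lies on the plus strand of 3R from 15278220 to 15308779 and had 3 reproducible and 15 pooled relaxed summits. Its 18 transcripts start at 8 sites, and 3 adjoining ones, from which 11 transcripts start, had a reproducible summit within 500 bp. Here 2 summits stood 199 bp apart in overlapping peaks, both inside intron 1 of the longer transcript Tm1-RT. The upstream one, at 15281036, lay 335 bp upstream of the first of these sites and had 2.13, 1.77 and 2.00, a mean of 1.97 ± 0.179 (SD, n = 3). The downstream one, at 15281235, lay 136 bp upstream and had 0.645, 1.25 and 0.974, a mean of 0.956 ± 0.303 (SD, n = 3). The upstream summit was the stronger in each of the 3 replicates. By its pooled position it lies within 500 bp of 2 of the 3 sites, which start 4 transcripts, whereas the downstream one lies within 500 bp of all 3. In replicates 1 and 3 the summit of the upstream peak, at 15281095 and 15281093, also lay within 500 bp of all 3. In replicate 2, at 15281037, it did not. None of the other 5 Tm1 start sites had a reproducible summit within 500 bp, and at the Tm1-RT start the strongest relaxed peaks reached 0.314, 0.381 and 0.490.

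The third summit of the Tm1 locus, at 15275367, lies 2853 bp upstream of the gene, at a promoter shared by Cp190, which encodes an insulator protein, and CG4338. It had 5.22, 5.29 and 4.83, a mean of 5.12 ± 0.248 (SD, n = 3), and ranked 93 of 5357. As in the Mef2 locus, the highest peak near the muscle gene lay at the promoter of a neighbour. The sequence under each of the 3 summits is shown because Tm1 is the only one of the 10 genes with 2 summits at an own promoter and the Cp190 summit is the strongest of its locus, 60 bases on either side of the summit on the plus strand of dm6, at chr3R:15275307-15275427, chr3R:15280976-15281096 and chr3R:15281175-15281295, with a CANNTG E-box in capitals.
Cp190 promoter: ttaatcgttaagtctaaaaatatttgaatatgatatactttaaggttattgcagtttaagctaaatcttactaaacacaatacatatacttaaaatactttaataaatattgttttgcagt
Tm1 upstream summit: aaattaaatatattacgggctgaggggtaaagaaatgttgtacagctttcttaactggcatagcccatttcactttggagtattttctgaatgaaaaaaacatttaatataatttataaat
Tm1 downstream summit: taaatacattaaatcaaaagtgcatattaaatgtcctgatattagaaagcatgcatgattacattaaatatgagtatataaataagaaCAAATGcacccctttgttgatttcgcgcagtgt
The first 2 sequences hold none of the elements searched in this window, and the third holds 1 E-box.

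Tm2 and up encode the partners of Tm1 on the thin filament, another tropomyosin and troponin T. Tm2 (FBgn0004117) lies beside Tm1 on 3R from 15310193 to 15315197, and none of its 5 start sites had a reproducible summit. Its strongest pooled relaxed peak, in a UTR, had a signal of 34.5, higher than 14.7% of the pooled relaxed list, and was found in replicates 2 and 3 alone, at 0.193 and 0.274. The gene up (FBgn0004169), on X from 13593474 to 13602578, had 4 pooled relaxed summits and its strongest, in an intron, reached 52.2, higher than 50.1% of that list. A relaxed peak is listed down to a relative signal of 0.232, 0.155 and 0.198 in replicates 1, 2 and 3, and a lower peak would not be listed.

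Act87E (FBgn0000046), a muscle actin gene, lies on the plus strand of 3R from 13425983 to 13428375 and had 2 reproducible summits, one at each end. The promoter summit at 13425678, 305 bp upstream of the TSS shared by 2 of its 3 transcripts, had 1.17, 1.43 and 1.28, a mean of 1.29 ± 0.131 (SD, n = 3). It also lies within 500 bp of the TSS of lncRNA:CR45591. The summit at 13428510 lay 135 bp past the end of the gene and had 0.795, 0.906 and 1.41, a mean of 1.04 ± 0.328 (SD, n = 3). The promoter was the higher in replicates 1 and 2 and the downstream summit in replicate 3, so the 2 were not separated. The promoter sequence, chr3R:13425618-13425738 on the plus strand of dm6, is shown because it holds a match to the Mef2 element centred 40 bp from the summit, the first stretch in capitals, and a CANNTG E-box, the second.
Act87E promoter summit: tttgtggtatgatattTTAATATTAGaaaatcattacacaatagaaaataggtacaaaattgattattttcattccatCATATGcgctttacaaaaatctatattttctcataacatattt
No other summit with a printed sequence holds a Mef2 element within 60 bp.

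Act57B (FBgn0000044), a muscle actin of the embryo and larva and a known target of Mef2, lies on the plus strand of 2R from 20944021 to 20946431. Its only reproducible summit, at 20939965, lay between genes 4056 bp upstream of the TSS, with 0.578, 0.490 and 0.706, a mean of 0.591 ± 0.108 (SD, n = 3). It too holds a match to the Mef2 element, centred 43 bp from the summit. The promoter itself had a relaxed peak in replicate 1 alone, at 0.356. This summit was also the farthest from its gene among those counted, and the 5 kb limit left out others a little farther away, at 5346 bp from Tm2, 5387 bp from Act87E beside yrt, and 5579 bp from Act57B, with signals of 150.3, 236.2 and 121.5 against 116.4 at the one inside.

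Mhc (FBgn0264695) is the single gene for muscle myosin heavy chain, from which all isoforms are spliced, and lies on the plus strand of 2L from 16766566 to 16788766. None of its 5 start sites, which serve 21 transcripts, had a reproducible summit. Its strongest pooled relaxed peak lay 61 bp downstream of the TSS that 14 of the transcripts use, with a signal of 55.7, higher than 53.9% of the pooled relaxed list. The replicates gave it 0.331, 0.306 and 0.272, a narrow spread at a low level. No reproducible summit was found within the 22.2 kb of the gene.

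Mlc2 (FBgn0002773) encodes the regulatory light chain of that myosin and lies on the minus strand of 3R from 30171438 to 30174551. Its only reproducible summit, at 30170780, lay 658 bp past the end of the gene and 427 bp downstream of the TSS of Rsod, whose name stands for a gene related to superoxide dismutase. It had 0.424, 0.879 and 0.294, a mean of 0.532 ± 0.307 (SD, n = 3), the lowest of the 14, and replicate 2 stood well above the others. The Mlc2 promoter had a relaxed peak in replicate 1 alone, at 0.234. The sequence, chr3R:30170720-30170840 on the plus strand of dm6, is shown as that of the strongest summit of the locus. It holds a GAGAGAG repeat and a TAATTA core, in capitals in that order, with TAATTA centred 2 bp from the summit.
Rsod summit beside Mlc2: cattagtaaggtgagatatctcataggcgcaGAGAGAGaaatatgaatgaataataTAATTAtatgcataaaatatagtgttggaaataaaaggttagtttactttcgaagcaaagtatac
A GAGAGAG stretch is the kind of sequence that GAGA factor is known to bind.

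The titin-like gene sls (FBgn0086906), whose product Sallimus spans from the Z-disc to the thick filament, lies on the minus strand of 3L from 2039681 to 2115611. All 13 of its transcripts start at 1 site, and the only reproducible summit of the locus, at 2115904, lay 293 bp upstream of it. It had 2.79, 2.14 and 2.36, a mean of 2.43 ± 0.328 (SD, n = 3), the highest own promoter of the 10 genes in the mean, and ranked 613 of 5357. The peak is narrow, at 264 bp. The 75.9 kb of the gene downstream of the TSS held no summit, neither reproducible nor pooled relaxed. At 0 summits, the 95% exact Poisson limit is 4.86 reproducible summits per 100 kb, which takes in the density of the arms. The sequence, chr3L:2115844-2115964 on the plus strand of dm6, is shown as that of the strongest summit of the locus, and it holds none of the elements searched.
sls promoter summit: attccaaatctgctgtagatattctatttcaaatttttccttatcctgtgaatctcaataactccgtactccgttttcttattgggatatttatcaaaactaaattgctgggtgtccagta
The absence of these letters in this window is all that is stated here.

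The other titin-like gene, bt (FBgn0005666), encodes projectin and lies on chromosome 4 from 724400 to 776474. The gene spans 52.1 kb, and its locus, flanks included, had 8 pooled relaxed summits and no reproducible one. The strongest lay 2401 bp upstream of the gene, with a signal of 80.1, higher than 68.8% of the pooled relaxed list. The replicates gave it 0.680, 0.398 and 0.267, so it entered the 5357 strongest peaks of replicate 1, whose weakest had 0.615, and not those of replicates 2 and 3.

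Read by replicate, the own promoters fell into 2 ranges that did not overlap. The strongest relaxed peak within 500 bp of an own TSS had between 0.778 and 2.79 in every replicate for sls, Tm1, Act87E and Mef2. For the remaining 6 genes it had at most 0.504, the value of Mhc in replicate 1. Mhc and bt had such a peak in 3 replicates, up in 2, and Tm2, Mlc2 and Act57B in 1 each. The weakest of the 5357 strongest peaks had 0.615, 0.578 and 0.587 in replicates 1, 2 and 3, between the ranges. The reproducible list was made from these same replicates, so this split is not independent of it.

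**Figure D4:**
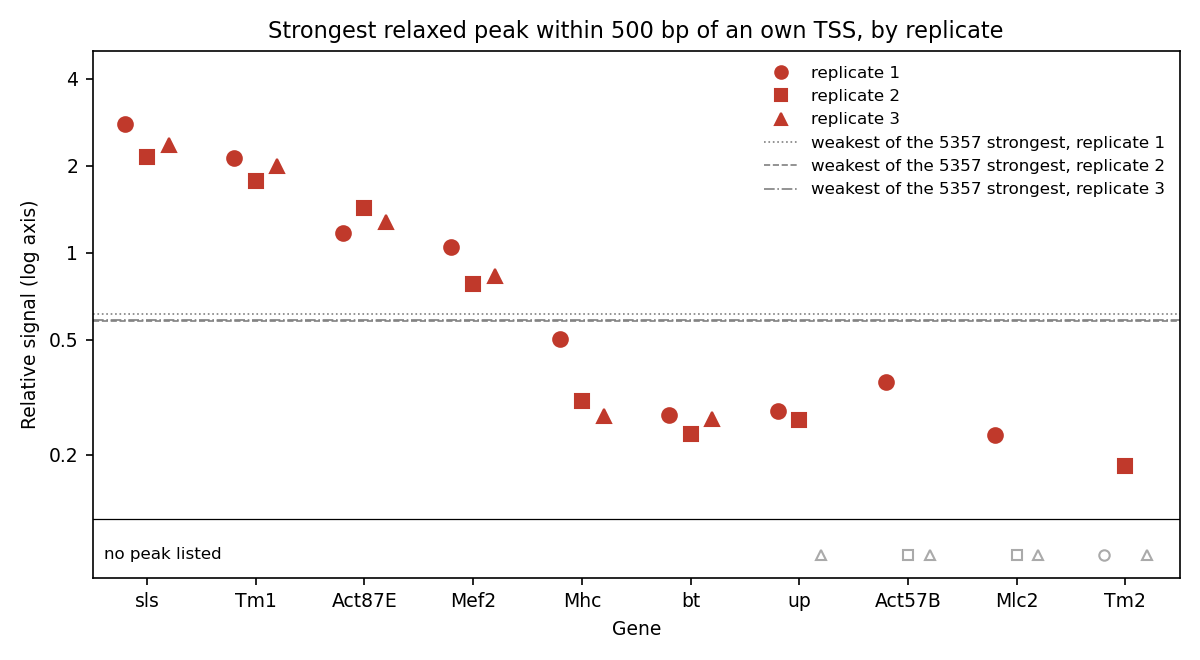
Strongest relaxed peak within 500 bp of an own TSS for each of the 10 genes, as relative signal on a log axis with 1 symbol per replicate; open grey symbols at the bottom mark replicates with no peak listed, and horizontal lines mark the weakest of the 5357 strongest peaks of each replicate. The points of sls, Tm1, Act87E and Mef2 all stand above the lines, at 0.778 or more, and those of the remaining genes below, at 0.504 or less.

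Sequence elements within 100 bp of the 14 summits were searched on both strands and are given beside the share of all 5357 reproducible summits. No summit held the ROR response element, against 1.29% of all summits. The core hexamer AGGTCA or GGGTCA was found at 1, the distal Mef2 promoter, centred 24 bp from the summit, which is 7.14% against 7.80%. The Mef2 element, in the form YTAWWWWTAR, was found at 2, beside Act57B and Act87E, which is 14.3% against 14.7%. Both lie in the loci of muscle actin genes, the one at Act57B between genes and 4056 bp upstream of the TSS. The same 2 summits stood against 8.51% of all summits with windows of 50 bp and against 22.7% with windows of 200 bp, so the comparison turns with the window.

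E-boxes of the form CANNTG lay at 10 of the 14, which is 71.4% against 57.2%, and TAATTA, the core of homeodomain sites, at 3, which is 21.4% against 20.5%. TATCGATA, the core of the DNA replication-related element, lay within 100 bp of none, against 3.92%. GAGAGAG lay within 100 bp of 2, in intron 1 of Mef2-RF and at Rsod, which is 14.3% against 2.99%. With windows of 50 bp GAGAGAG was found at 1, against 0.877%, and with 200 bp at 4, against 9.58%. With 14 summits these shares move in steps of 7.14 percentage points. The median GC content within 100 bp was 33.6%, from 23.4% to 46.8%, against 33.3% over all summits, and the highest value was shared by the distal Mef2 promoter and the Mef2 UTR summit.

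A wider set of 50 muscle genes, the 10 included, was read in the same way. A locus summit was found for 27 and an own-promoter summit for 12, which is 54.0% and 24.0%, and for the 40 genes beside the 10 these counts were 21 and 8. These shares are near the background of 53.2% and 23.9%. Of 16 thin-filament genes, 7 had a locus summit and 4 an own-promoter summit, Tm1, Act87E, Act5C and tmod. Act5C, a cytoplasmic actin gene, had 1.50, 2.12 and 1.51 at a summit 455 bp upstream of its TSS, and tmod, for the pointed-end capping protein tropomodulin, had 0.909, 1.26 and 1.37. The muscle actin genes Act79B and Act88F and 4 of the 5 troponin C genes had no locus summit.

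Of 7 thick-filament genes, 3 had a locus summit and 0 an own-promoter summit, against 53.2% and 23.9% of all genes. The 3 are Mlc2, Prm, which encodes paramyosin, and Strn-Mlck, a gene for a myosin light chain kinase. The highest peak of the Strn-Mlck locus, at 11.0, 10.8 and 11.0, lay at the promoters of CG8320 and Pex11ab. Of 3 titin-like and M-line genes, sls had a promoter summit and the obscurin gene, listed as Unc-89, a locus summit. Z-disc and attachment genes had 7 of 10 in the locus and 4 at a promoter, Msp300, mys, Actn and if, against 53.2% and 23.9% of all genes and 70.8% and 29.7% of genes of 20 kb or more, the size of Msp300, if, Zasp52 and cher. Msp300, the nesprin that anchors muscle nuclei, had 3.74, 4.93 and 4.89 at 380 bp upstream of a TSS, above the sls promoter in all 3 replicates. At mys, the beta integrin of muscle attachment, the values were 0.914, 0.747 and 0.642 at a promoter shared with fs(1)h, and at Actn, which encodes alpha-actinin, they were 0.881, 0.598 and 0.508. The integrin gene if had 0.830, 0.675 and 0.509, which overlap those of Actn.

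Of 14 regulators of mesoderm and muscle, 8 had a locus summit and 3 an own-promoter summit, Mef2, tin and how, close to the 53.2% and 23.9% of all genes. The cardiac and visceral mesoderm factor tin had 1.97, 2.06 and 2.13 at 220 bp upstream of its TSS, above the Mef2 distal promoter in each replicate. The RNA-binding protein gene how had 0.510, 0.831 and 0.734 at its promoter.

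The reproducible list took 14 of the 63 pooled relaxed summits in the 10 loci, which is 22.2%, and 22.7% of all pooled relaxed summits. All 10 genes had a relaxed summit in the locus, as did 86.2% of protein-coding genes. The other 49 had signals from 30.9 to 87.5 with a median of 42.7, below the 116.0 of the weakest reproducible summit of the loci, and 18 of them lay in a relaxed peak of all 3 replicates. The highest of them lay in Tm1.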

How the data were processed

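Peak lists of 3 biological replicates on dm6 were used. Per the labels, sonication sheared the chromatin to between 200 and 800 bp. Text files that came with the deposited samples name the inputs of each list. The authors made a relaxed list from each replicate's alignments and from the pooled ones, each with 1 further alignment file, and from these lists the reproducible one, by the irreproducible discovery rate (IDR). That further file was not analysed here. Not given in the sources used here are the aligner, the caller, its settings and the IDR threshold. The deposited signal of a peak is the authors' value, on a scale of its own in each list. As peaks are given in place of reads, depth is unknown.

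Summits were placed with Ensembl release 115 (BDGP6.54, the assembly of dm6), first by promoter (500 bp), then by coding exon, UTR, remaining exons and introns, with Python 3.11.15, NumPy 2.4.6 and SciPy 1.17.1. A peak was counted as within 500 bp of a TSS, or at a promoter, only where its summit lay there. Sequences are from RefSeq, on the same assembly. A replicate's relative signal is that of its relaxed peak containing the summit (the one with the nearest summit where several do), divided by its median at the reproducible summits, which was 39.6, 78.6 and 67.0 in replicates 1, 2 and 3. Counting was tested on simulated summits. The genes, gene lists and elements were chosen with earlier results of these data known. All 10 genes and 14 summits are named, genes without a summit by their strongest pooled relaxed peak, and in each muscle list the 3 strongest own-promoter genes by pooled signal. The Tm1 promoter sequences, tmod, if, the loci of Strn-Mlck, Prm and Unc-89 and the actin and troponin C genes without a summit were chosen after their values were seen. With 1 group no test was made.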

Additional observations from a re-analysis of the deposited data

How the results depend on the processing

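With 1 group of 3 replicates and peak lists in place of reads, all values are descriptions, and depth and the cells bound are unknown. Without flanks, 2 genes held 5 summits in the gene body, a promoter share of 40% and 2.01 summits per 100 kb, since 9 of the 14 summits lie in the flanks. Flanks of 1 kb gave a density of 3.74. Promoters of 200 bp left 2 genes with an own-promoter summit, Mef2 and Tm1, and a promoter share of 35.7%. The part of the list at or above its median signal held 8 summits, 75.0% of them at promoters, at 2.36 per 100 kb. The pooled relaxed list gave 10 genes with a locus summit, where 86.2% of all protein-coding genes had one, and 7 with an own-promoter summit. It gave 63 summits, 18.6 per 100 kb, with 28.6% at promoters against 32.7% of all pooled relaxed summits. No value over all genes or summits is given here for that own-promoter count and density, nor for the other settings. Summits in the strongest peaks of all 3 replicates had a promoter share of 72.7% and a density of 3.24. Leaving out each replicate in turn, with a summit kept if it lay in the strongest peaks of both others, gave 4 genes each time in the locus and 4 at own promoters, Mef2, sls, Tm1 and Act87E, so that Mlc2 and Act57B dropped out. The summits then numbered 11 to 12, with promoter shares of 66.7% to 72.7% and 3.24 to 3.53 per 100 kb. Relative signals moved by more than the replicate SD for 1 summit, the downstream Tm1 promoter summit, to 1.40 with the pooled signal and to 1.97 with the strongest peak within 250 bp, which is its neighbour. Leaving out a replicate cannot move a mean of 3 values by more than their SD, so that setting could not show such a move. Percentile ranks are another scale and were not set beside the relative signals. No paired analysis was possible because the samples form 1 group.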

Other observations

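Among the 49 relaxed summits of the 10 loci outside the reproducible list, 7 lay in coding exons, which is 14.3%, against 2.81% of all such relaxed summits. This was singled out after the values were seen. The share of coding sequence in the loci is not given here, so the comparison does not allow for it. Of the 7, 6 lay in coding exons of 4 of the genes themselves, with 3 in bt and 1 each in Mhc, Act57B and Mlc2, and 1 in Cyt-b5-r beside Mhc. Of those in bt, the summits at 774282 and 774568 lie in overlapping peaks. The pooled signals of the 7 ran from 31.7 to 55.4. The summit in bt with a signal of 44.5 lay in a relaxed peak of all 3 replicates, at 0.258, 0.268 and 0.216, and 2 of the 7, both in bt, in none. The one in Act57B lay in a relaxed peak of replicate 2 alone, at 0.513. None of the 14 reproducible summits lay in a coding exon, against 0.131% of all reproducible summits.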
